A study of Anguilla anguilla with 6 samples.

Results

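Transcripts for taking up, activating, building and storing fatty acids were compared between ovaries of European eels (Anguilla anguilla) that the labels class as responders or non-responders to gonadotropins. The group consisted of the 64 gene models, out of 45974 in the authors' deposited table, whose description names a perilipin, a fatty acid-binding protein, a long-chain fatty acid transport protein, a long-chain acyl-CoA ligase, acetyl-CoA carboxylase, fatty acid synthase, a fatty acid elongase, a desaturase or a diacylglycerol O-acyltransferase. A further 3 models described as sphingolipid desaturases were left out. The 64 models carry 29 names, such as plin2, elov5 or acod, taken from the best protein match, and they fill 8 of the 9 roles. The phrase for acetyl-CoA carboxylase found no model, because the descriptions in the authors' deposited table drop the word CoA.

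All 6 eels came from 1 commercial farm and all were sampled after 4 weekly injections with gonadotropins, hormones of the pituitary under which ovaries grow, so neither group is untreated. There were 4 responders and 2 non-responders, each giving 1 mRNA library from pooled pieces of 3 gonad regions. The labels name no strain, age, hormone preparation or dose and do not say what defined a response. Values are the authors' group means in scaled counts, that is counts divided by a size factor per library, and each log2 is that of the responder mean over the non-responder mean. Values and depth of single libraries were not used here, so the means carry no SD, and whether the animals of the groups overlap was not analysed here. The group means sum to 12635190 scaled counts among non-responders and 11695525 among responders, and making both sums equal adds 0.11 to each log2, so that a log2 between -0.11 and 0 changes sign.

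Growing fish oocytes fill with lipid droplets as well as yolk, and eel oocytes are known for their many droplets. Fatty acids reach a cell from lipoproteins or are made in it by acetyl-CoA carboxylase and fatty acid synthase. They are tied to coenzyme A by acyl-CoA ligases, lengthened by elongases and given double bonds by desaturases. Diacylglycerol O-acyltransferases join the last fatty acid to make triglyceride, which is stored in droplets coated by perilipins.

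Of the summed means of the 64 models, most came from 1 acyl-CoA ligase of the bubblegum family, ACSBG2, known in mammals chiefly from the testis. Its model g11435 had 21404 scaled counts among non-responders and 18060 among responders in the authors' deposited table, which ranked it 53 by mean among all models. The ligases as a role held 80.3% of the summed means of the 64 models, and g11435 held 89.0% of that role. Perilipins followed with 8.47% of the sum, elongases with 5.66%, acyltransferases with 2.42% and fatty acid synthase with 1.61%. Desaturases held 0.835%, transport proteins 0.673% and the 1 binding protein 0.0619%. Shares shift when 29 models with shortened descriptions, described further on as outside the search, are counted in. Binding proteins then hold 44.7% of the summed means, FABP4 g3192 alone 36.5% and g11435 39.2%. These shares are not set per length, so long transcripts such as g11435, of 4440 bases, weigh more in them than short ones. Shares per 1000 bases were not computed. Since longer transcripts collect more reads, levels of different genes were also set per 1000 bases of transcript. On that scale g11435 had 4821 scaled counts per 1000 bases among non-responders and 4068 among responders, above 99.3% of the models with a p. Over all libraries, FABP4 g3192, intestinal-type FABP g17208 and heart-type FABP g8706, from the shortened descriptions, stood at 24592, 2444 and 1268. Among the 64 models, ordered by the mean per 1000 bases over all libraries, short perilipin-2 models came after g11435. These were g23309 of 537 bases (826 and 870) and g31184 of 907 bases (586 and 602). The elongase ELOVL1 g13764 (514 and 412) came next. Without SDs, the order of neighbouring levels such as these last pairs cannot be set against a spread between animals.

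**Figure D1:**
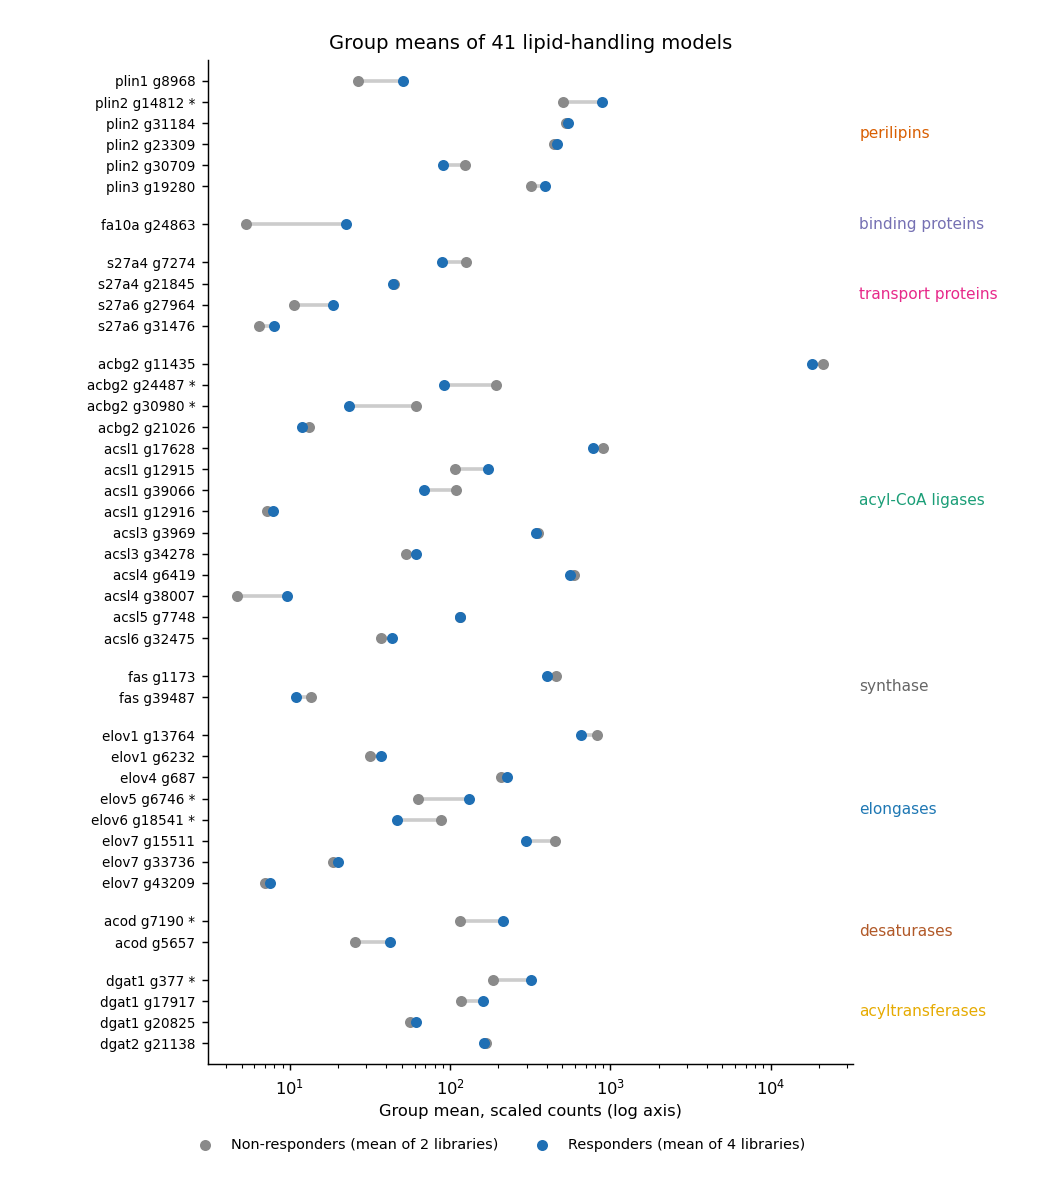
Group means in scaled counts (log axis) of the 41 models with a mean of at least 5, ordered by role. Grey points are the authors' means of non-responders and blue points those of responders, asterisks mark the 7 models with an unadjusted p under 0.05, and the ACSBG2 model g11435 lies far to the right of all others.

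No model of fatty acid handling passed the threshold between responders and non-responders. Of the 62 models with a p in the authors' deposited table, 0 had an adjusted p under 0.05, the smallest adjusted p being 0.562; the same call was made for 0.183% of all 37072 models with a p (0.121% higher in responders and 0.062% lower). An unadjusted p under 0.05 was given to 7 of the 62 in the authors' deposited table, 11.3% against a background of 3.67% (2.07% higher in responders and 1.59% lower). All 7 were among the 41 models with a mean of at least 5 scaled counts, where they made up 17.1% against a background of 5.61%. They carry 6 names. The 4 with the larger responder mean were models of perilipin-2, the elongase ELOVL5, an acyl-CoA desaturase and the acyltransferase DGAT1 (9.76% of the 41, background 3.21%), and the 3 with the smaller one were 2 models of ACSBG2 and 1 of the elongase ELOVL6 (7.32% of the 41, background 2.41%). These shares are descriptions, since several models can be pieces of 1 gene. No other tool was run on these data.

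The difference in means was small for most of them. Of the 41, 24 lay above and 17 below a ratio of 1; the median was a log2 of 0.10 and the interquartile range ran from -0.21 to 0.46, beside a median of 0.01 and a range of -0.28 to 0.35 over all 23266 models with that mean. More than 2-fold separated the groups for 5 of the 41 (12.2%), against 10.5% of the 23248 models with that mean and a finite log2. The other 23 models had means under 5. Of these 23, 2 were listed at 0 in both groups, 6 at 0 in non-responders alone and 0 in responders alone. Among all 45974 models, 8902 were listed at 0 in both groups, 3616 in non-responders alone and 1052 in responders alone. A mean of 0 takes 2 libraries without reads among non-responders and 4 among responders, so these counts are not read as a difference. In whole-tissue RNA of this kind, fewer cells of a type and less RNA per cell cannot be told apart.

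**Figure D2:**
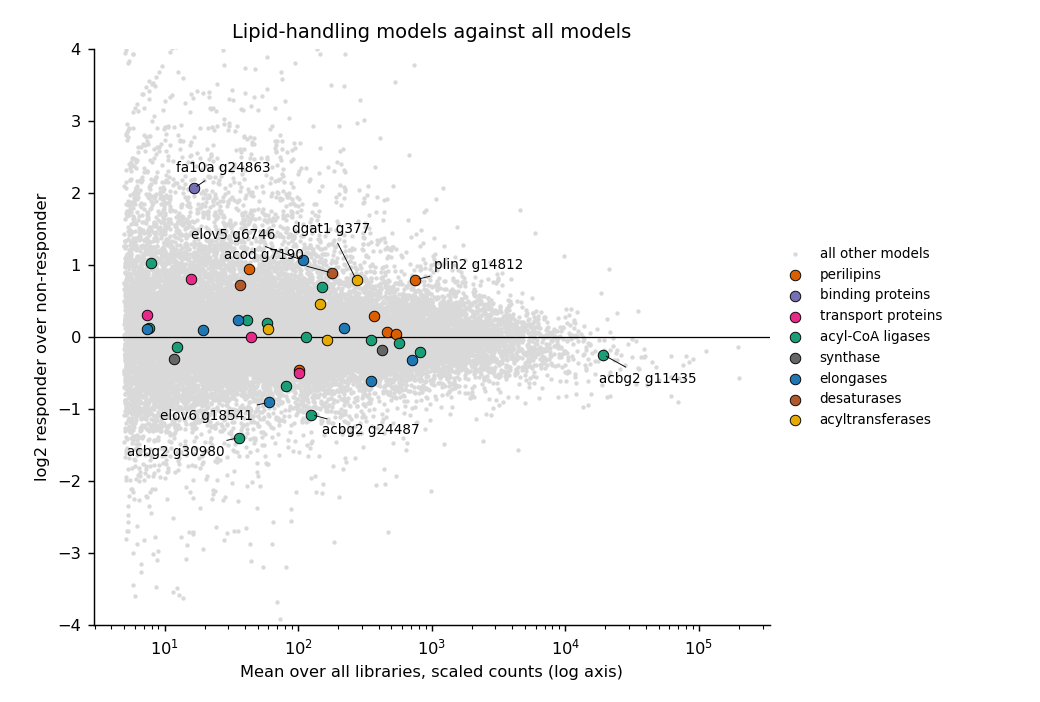
Log2 of responder over non-responder means (vertical axis) against the mean over all libraries in scaled counts (log axis), for all models whose mean reached 5 (grey) and the 41 models of fatty acid handling (coloured by role). The vertical axis is limited to 4 either way, so 73 grey models beyond it and 18 listed at 0 in 1 group are not drawn. Every coloured point except that of FABP10 lies within a log2 of 1.5 of the line at 0, and the named points are the 7 with an unadjusted p under 0.05, the ACSBG2 model g11435 and FABP10.

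Of 9 models of long-chain fatty acid transport proteins, which take up fatty acids and link them to coenzyme A, 4 had a mean of at least 5, and none had an unadjusted p under 0.05. The FATP4 model g7274 (s27a4) had 126 scaled counts among non-responders and 88.5 among responders (log2 -0.50, p = 0.193) per the authors' deposited table. Another FATP4 model, g21845, stood at 44.4 and 44.2 in the authors' deposited table, a log2 of -0.01 that turns to 0.11 when the groups are rescaled to equal sums. FATP6 (s27a6) had 4 models that together reached 21.5 scaled counts among non-responders and 34.4 among responders (log2 of the sums 0.68). The largest of them, g27964, had 10.6 and 18.5 according to the authors' deposited table (log2 0.80, p = 0.255). FATP3 had 2.03 and 1.69 scaled counts and the FATP1 piece was listed at 0 in both groups.

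The 1 model matched as a fatty acid-binding protein was FABP10 (fa10a, g24863), the liver basic type of fish. It had 5.31 scaled counts among non-responders and 22.3 among responders in the authors' deposited table, a log2 of 2.07 with p = 0.449. Its fold was the largest of the 41, and its p was far from the threshold. ELOVL5, with 2.09-fold at a mean of 109 scaled counts, had p = 0.016 in the authors' deposited table. Why these p-values differ was not tested. Descriptions that omit the word protein hid 7 further binding proteins from the search, and they were looked at after their values were known. Among them the adipocyte type FABP4 (g3192) had 18197 scaled counts among non-responders and 17646 among responders in the authors' deposited table (log2 -0.04, p = 0.819). At 24592 scaled counts per 1000 bases over all libraries FABP4 stood above g11435 at 4319, and its rank per 1000 bases was 24 among all models. Intestinal-type FABP (fabpi, g17208) had 2086 and 3580 according to the authors' deposited table (log2 0.78, p = 0.023, adjusted p = 1), and heart-type FABP (fabph, g8706) 726 and 961 (log2 0.40, p = 0.305). Liver-type fabpl and the 2 brain-type fabp7 models had means between 1.83 and 9.41.

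Activation of fatty acids by ligases to coenzyme A gave 20 models, 14 of them with a mean of at least 5, of which 6 lay above and 8 below a ratio of 1 (median log2 -0.06, or 0.05 with the groups rescaled to equal sums). ACSBG2 alone had 7 models by name, and an unnamed piece with that description, g38620, was listed at 0 in both groups. The dominant g11435 had a log2 of -0.25 (p = 0.436) per the authors' deposited table, nearer to 0 than those of the models of that name with the smallest p-values. Model g24487 had 192 scaled counts among non-responders and 90.9 among responders (log2 -1.08, p = 0.015, adjusted p = 0.923), and g30980 had 61.3 and 23.2 (log2 -1.40, p = 0.0054, adjusted p = 0.562) per the authors' deposited table. These are the smallest p-values of the ligases. Summed over all 7 models, ACSBG2 came to 21672 scaled counts among non-responders and 18188 among responders, a log2 of -0.25 that rests on g11435, which held 99.1% of the summed mean. Similarity to the matched frog protein was 0.531 for g11435, 0.593 for g24487 and 0.658 for g30980, as given in the authors' deposited table, and the table does not say whether they are copies or pieces of 1 gene.

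Among the ACSL ligases, which activate the common long-chain fatty acids, the model with the highest mean of each of ACSL1, ACSL3, ACSL4, ACSL5 and ACSL6 had a log2 between -0.21 and 0.23. ACSL1 g17628 had 896 scaled counts among non-responders and 776 among responders (log2 -0.21, p = 0.515) per the authors' deposited table. Other ACSL1 models lay on both sides, g12915 at 107 and 172 (log2 0.69, p = 0.076) and g39066 at 109 and 68.2 (log2 -0.68, p = 0.0998) per the authors' deposited table, and the sum over 4 ACSL1 models had a log2 of -0.13. ACSL4, which favours arachidonic acid, had 595 and 561 in its main model g6419 in the authors' deposited table, a log2 of -0.08 that turns to 0.03 with equal sums. Its 207-base piece g38007 had 4.69 and 9.60 (log2 1.03, p = 0.277) per the authors' deposited table. ACSL3, found on growing droplets, had summed means of 408 and 406, ACSL5 115 and 117 and ACSL6 37.0 and 43.5. ACSBG1 was listed at 0 in non-responders and at 0.214 scaled counts in responders.

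**Figure D3:**
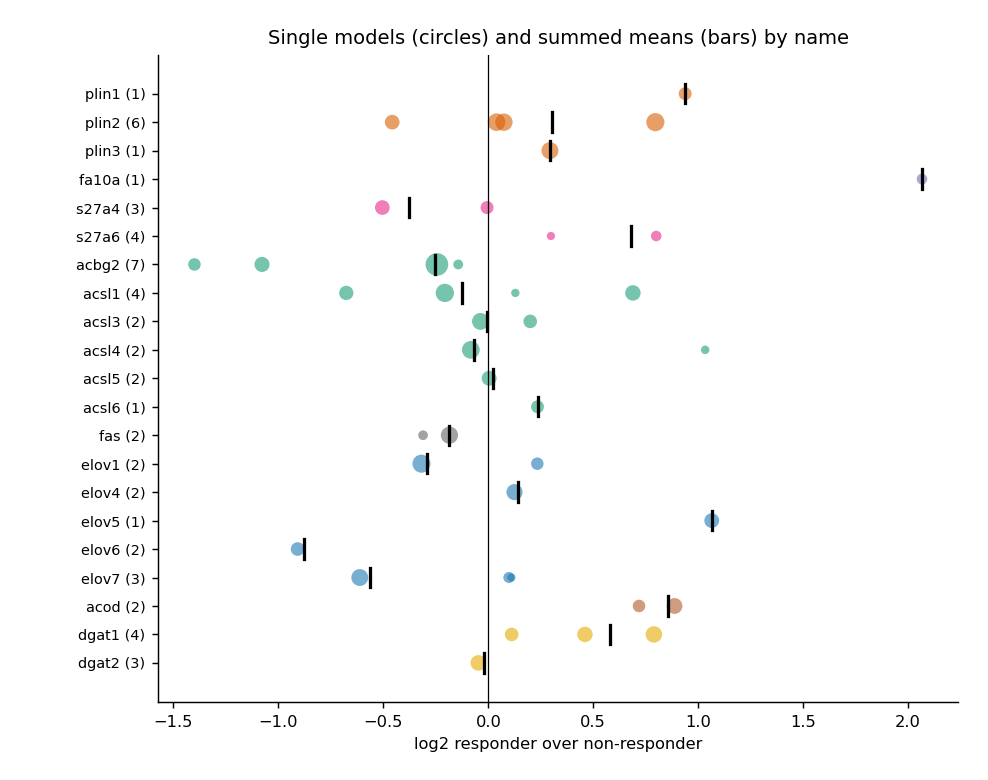
Log2 of responder over non-responder means for each model with a mean of at least 5 (circles, larger for higher means) and for the summed means of all models of a name (black bars), with the number of models per name in brackets. Models of plin2, acsl1, acsl3, acsl4, elov1 and elov7 lie on both sides of 0, while both acod models and all 3 drawn dgat1 models lie above it.

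Making new fatty acids was represented by fatty acid synthase, the enzyme that builds palmitate. Its longer model g1173 of 8632 bases had 459 scaled counts among non-responders and 403 among responders (log2 -0.19, p = 0.582) per the authors' deposited table, and the short piece g39487 had 13.6 and 10.98 (log2 -0.31, p = 0.703). Acetyl-CoA carboxylase, which supplies its malonyl-CoA, was outside the search but appears in the authors' deposited table as 22 models under the shortened description. They are mostly short pieces, 6 with a mean of at least 5, and together they reached 212 scaled counts among non-responders and 188 among responders (log2 of the sums -0.17). The piece with the highest mean, acacb g29266, had 89.5 and 68.8 according to the authors' deposited table (log2 -0.38, p = 0.381).

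Elongases lay on both sides of a ratio of 1. Of 11 models, 8 had a mean of at least 5, 5 of them above and 3 below a ratio of 1. ELOVL5 (g6746), which lengthens polyunsaturated fatty acids, had 62.9 scaled counts among non-responders and 131 among responders (log2 1.06, p = 0.016, adjusted p = 0.936) per the authors' deposited table. ELOVL6 (g18541), which turns palmitate into stearate, had 87.5 and 46.6 (log2 -0.91, p = 0.024, adjusted p = 1) per the authors' deposited table. Neither passed, and no test of the contrast between them was made.

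The means of other elongases lay on both sides of those of ELOVL5 and ELOVL6. ELOVL1 g13764 and ELOVL7 g15511, both known to act on saturated chains, had 822 and 659 scaled counts (log2 -0.32, p = 0.284) and 454 and 297 (log2 -0.61, p = 0.078) per the authors' deposited table. Models of the same names with lower means, g6232, g33736 and g43209, had a log2 of 0.23, 0.10 and 0.11. ELOVL4 (g687), which makes very long chains, had 207 and 226 according to the authors' deposited table (log2 0.12, p = 0.875). ELOVL2, a further elongase of polyunsaturated chains, had only 1.02 and 2.61 scaled counts, with p = 0.606 in the authors' deposited table. Taken by name, with pieces summed, the median log2 of the elongases was -0.29 where that of single models was 0.10.

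Desaturases of the delta-9 type, which make oleate from stearate, were the only ones above a mean of 5. The acyl-CoA desaturase models g7190 and g5657 (acod), both matched to the carp enzyme, had 115 and 213 scaled counts (log2 0.89, p = 0.038, adjusted p = 1) and 25.6 and 42.0 (log2 0.72, p = 0.278) per the authors' deposited table. Their summed means of 141 among non-responders and 255 among responders had a log2 of 0.86. FADS2 and FADS1, which open the way from dietary to long polyunsaturated fatty acids, had means under 5. FADS2 (g15145) had 2.43 and 2.65 scaled counts and FADS1 (g15146) 2.03 and 1.02, on transcripts of 2813 and 2447 bases. The other desaturases under that mean were FADS6, at 1.64 and 3.90, and SCD5, described as a stearoyl desaturase. SCD5 was listed at 0 in non-responders and at 0.269 in responders. Set beside ELOVL5, which works on the products of FADS2, the FADS2 model was at 0.864 scaled counts per 1000 bases in non-responders where ELOVL5 was at 16.9, and at 0.942 in responders where ELOVL5 was at 35.4.

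The last step of triglyceride assembly is shared by 2 unrelated acyltransferases, DGAT1 and DGAT2. Of 4 DGAT1 models, 3 had a mean of at least 5, and all 3 lay above a ratio of 1. The largest, g377, had 184 scaled counts among non-responders and 318 among responders (log2 0.79, p = 0.042, adjusted p = 1) per the authors' deposited table, and g17917 had 117 and 161 (log2 0.46, p = 0.252). Summed over its 4 models, DGAT1 had 363 and 543 scaled counts (log2 of the sums 0.58). The DGAT1 model under a mean of 5, g26330, lay on the other side at 5.24 and 2.75 (log2 -0.93, p = 0.503) per the authors' deposited table. DGAT2 (g21138) had 168 and 163 according to the authors' deposited table, a log2 of -0.05 with p = 0.860 that turns to 0.06 when the groups are rescaled to equal sums. Its other models, g22545 and g26395, were listed at 0 in non-responders and at 2.49 and 0.646 in responders. The difference between DGAT1 and DGAT2 was not tested.

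Droplet coat proteins were led by perilipin-2, the coat of droplets in most cells. Of its 6 models 4 had a mean of at least 5, and their log2 values ran from -0.46 to 0.80. The longest, g14812 of 1869 bases, had 507 scaled counts among non-responders and 881 among responders (log2 0.80, p = 0.025, adjusted p = 1) per the authors' deposited table. Other models were close between the groups, g31184 at 531 and 546 (log2 0.04, p = 0.910) and g23309 at 444 and 467 (log2 0.07, p = 0.814), and g30709 had 124 and 90.0 (log2 -0.46, p = 0.221) per the authors' deposited table. Summed over the 6 models, perilipin-2 had 1611 scaled counts among non-responders and 1988 among responders, a log2 of 0.30 against 0.80 for g14812 alone. Whether these are separate genes or fragments is not given in the sources used here.

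Perilipin-3 (g19280), a coat protein that moves between cytosol and droplets, had 319 and 391 scaled counts (log2 0.29, p = 0.380) per the authors' deposited table. Perilipin-1 (g8968), the coat of the large droplets of fat cells, had 26.7 and 51.1 (log2 0.94, p = 0.066) per the authors' deposited table. The adipocyte marker list, which holds it, has 8 models, 4 of them with a mean of at least 5. C/EBP-alpha (g16641), a regulator of fat cell genes, had 66.3 and 126 scaled counts (log2 0.92, p = 0.259) and adiponectin (g9157), a fat cell hormone, 3.37 and 9.71 (log2 1.53, p = 0.287) per the authors' deposited table. Leptin, a model of 188 bases, and all 3 models of hormone-sensitive lipase, of 222 to 359 bases, were listed at 0 in both groups. So were 8902 of all 45974 models, and a 0 on such short models does not show that a gene is silent. The summed level of the list, 18293 and 17832, is nearly all FABP4. The part of fat cells in the perilipin values was not tested.

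Features other than the search words are given here as description. Ontology terms, like the descriptions searched, annotate the kind of protein. High shares of lipid-related terms therefore follow from the choice of models and are no independent result. Of the 41 with a mean of at least 5, 28 carry the ontology term endoplasmic reticulum (68.3%, against 6.28% of all models with that mean) and 13 the term peroxisome (31.7%, against 0.563%). The term lipid particle is given for 6 of them (14.6%, against 0.649%). Similarity to the matched protein ran from 0.493 to 0.890 with a median of 0.631, beside a median of 0.689 over all models with that mean, and 14 of the 41 best matches were human proteins. Transcript length had a median of 1600 bases over the 41, beside 741 over the 23 with lower means, and 16 of the 41 (39.0%) were shorter than 1000 bases. Over all models these values were 1475 bases, 355 bases and 37.2%, so the share of short transcripts was near the background.

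Neighbouring steps of lipid metabolism were searched by description with 7 lists, and 1 of their 100 models with a p passed (1.00%, against 0.183% of all models). It is a mitochondrial NADP-dependent malic enzyme (maon, g675), of a family that yields NADPH. It had 1.49 scaled counts among non-responders and 52.9 among responders (log2 5.15, adjusted p = 0.000759) per the authors' deposited table. The main model of that name, g10599, had 4444 and 3618 according to the authors' deposited table (log2 -0.30, p = 0.338). The list of citrate and acetyl-CoA supply to which both belong had 10 models with a mean of at least 5, 5 above and 5 below a ratio of 1, and its median log2 was -0.06. ATP-citrate synthase (acly), which makes cytosolic acetyl-CoA, had summed means of 599.8 and 650.2 over 4 models. Its model g15270 had 56.3 and 88.9 according to the authors' deposited table (log2 0.66, p = 0.138). The more abundant g2971 had 435 and 464 (log2 0.09, p = 0.816) per the authors' deposited table, and g2970 lay on the other side at 106 and 95.5 (log2 -0.16, p = 0.639).

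The list of droplet formation was led by CIDE-A. Its model g9014 (cidea), of a protein of droplet fusion, had 21767 scaled counts among non-responders and 12613 among responders (log2 -0.79, p = 0.010, adjusted p = 0.766) per the authors' deposited table, ranking 64 by mean among all models. Its other model g1288 had 5895 and 5099 (log2 -0.21, p = 0.488), and CIDE-B (g12596) 73.8 and 106 (log2 0.53, p = 0.213), in the authors' deposited table. The remaining models of that list with a mean of at least 5, those of seipin, FITM2 and CIDE-3, had log2 values between -0.03 and 0.06. None of the 7 passed, and their median log2 was 0.03.

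Steps before diacylglycerol gave 21 models with a mean of at least 5, 13 above and 8 below a ratio of 1 (median log2 0.24), and none passed. The smallest p-values there were those of glycerol-3-phosphate acyltransferase 1, the mitochondrial enzyme that starts glycerolipid synthesis, with 46.0 and 84.0 scaled counts for g22723 (log2 0.87, p = 0.052) and 31.1 and 57.6 for g10287 (log2 0.89, p = 0.073) per the authors' deposited table. Lipolysis had 8 models, of which the 3 short ones of hormone-sensitive lipase (222 to 359 bases) were listed at 0 in both groups. The 4 with a mean of at least 5 lay between a log2 of -0.14 and 0.01. Adipose triglyceride lipase, which starts the breakdown of stored triglyceride, was at 253 and 229 in g27383 (log2 -0.14, p = 0.751) per the authors' deposited table. In its model g2353 it was at 95.6 and 87.9 (log2 -0.12, p = 0.721) per the authors' deposited table. Fatty acid oxidation had 23 models, 18 of them with a mean of at least 5. Of these 18, 10 lay above and 8 below a ratio of 1, at a median log2 of 0.12. None of the 18 passed.

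Uptake had 11 models, and none passed. The 8 with a mean of at least 5 had a median log2 of -0.27. The 4 models of the VLDL receptor, which imports lipoproteins, spanned log2 values from -0.59 (g40667, p = 0.0994) to 0.52 (g1875, p = 0.146) per the authors' deposited table. Lipoprotein lipase (lipl, g9732), which frees fatty acids from lipoproteins, had 15.1 and 95.6 scaled counts (log2 2.66) with p = 0.425 in the authors' deposited table. Of 15 transcriptional regulator models, 7 had a mean of at least 5, and none passed. Of the 7, 6 lay above and 1, SREBP-1 g18394 (log2 -0.38), below a ratio of 1 (median log2 0.46). Models under that mean lay on both sides. The smallest p-values among the 7 were those of PPAR-gamma (g9), at 21.3 and 37.1 (log2 0.80, p = 0.132), and LXR-alpha (nr1h3, g4560), at 171 and 235 (log2 0.46, p = 0.230), in the authors' deposited table.

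**Figure D4:**
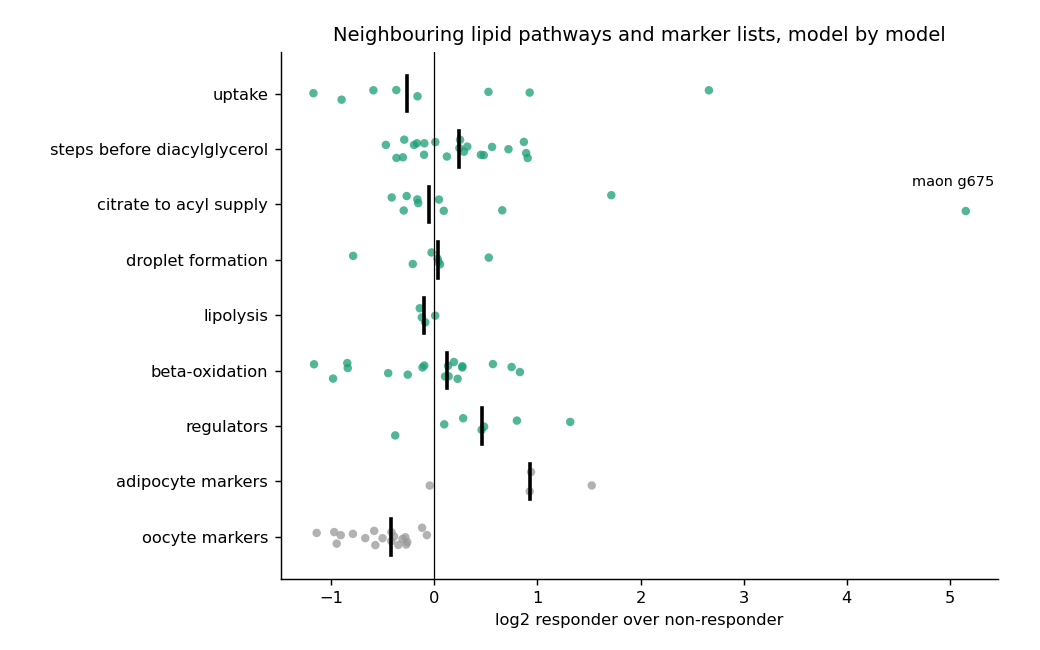
Log2 of responder over non-responder means for single models with a mean of at least 5 in 7 neighbouring lipid lists (green) and 2 marker lists (grey), with black bars at the medians. The malic enzyme model g675 at 5.15 is the 1 model that passed, and all 19 oocyte marker models lie below 0.

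The labelled tissue was checked on marker lists. Egg envelope proteins and ZAR1, made by oocytes, summed to 761730 scaled counts among non-responders and 522818 among responders, and all 19 models lay below a ratio of 1, or 18 with the groups rescaled to equal sums (median log2 -0.42 as deposited). The smallest p-values were those of ZAR1 g14809 (log2 -0.95, p = 0.0021) and ZP4 g11772 (log2 -0.97, p = 0.0029) per the authors' deposited table. The models of ACSBG2, ELOVL6 and CIDE-A with a mean of at least 5 also lay below a ratio of 1. As deposited, those of fatty acid synthase, FATP4 and DGAT2 with that mean did so too. That side is not particular to any of these names. Of the 41 models of fatty acid handling, 17 lay below (41.5%) and 24 above, and 49.4% of all models with that mean lay below. The part of oocyte content in any of these values was not tested. Marker lists of other cells held 4 to 6 models each with a mean of at least 5, none of which passed. Their summed levels were 1609 and 1791 for erythrocytes, 47.1 and 56.9 for leukocytes, 140 and 74.96 for endothelium and 232 and 150 for smooth muscle, and the phrases for hepatocytes matched no model. Without the 144-base piece g34146 the erythrocyte sums were 1568 and 1378, the other way round. At the smallest p-values of these lists in the authors' deposited table, VE-cadherin g17569 and g38811 had log2 values of -1.35 and -1.63, calponin-1 g14833 and myosin-11 g2226 of -1.15 and 0.19, coronin-1A g4014 and g22693 of 1.26 and 0.70, and the hemoglobin models g34146 and g28202 of 3.30 and -0.33. Other models of these lists lay on both sides, with log2 values of 0.09 for von Willebrand factor g357, 0.26 for VE-cadherin g3545, -0.18 for the leukocyte phosphatase PTPRC g6670 and -0.09 for coronin-1A g21858.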

How the data were processed

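Per the labels' protocols, gonad pieces of each eel were pooled and each animal gave 1 mRNA library from 1 microgram of total RNA. The values come from the authors' DESeq table; its version, the aligner, the counter and the build are not stated in the sources used here. The authors deposited base means per the file headers, a signal of counts divided by size factors. The mean over all libraries equals a weight of 0.333 for condition A plus 0.667 for B in each row, so A pools the 2 non-responders and B the 4 responders. The deposited fold is B over A, and the authors deposited a p-value and an adjusted p-value per model. Similarity is a deposited fraction, and transcript length is in bases. A further 6 columns of single libraries match no library's label and were not used, so depth per library, spread and leave-one-out values were not analysed here. No interval was computed.

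A log2 of the fold was computed with Python 3.11.15 and pandas 2.3.3; readjustment used Benjamini-Hochberg, tested on simulated data. The threshold was a deposited adjusted p under 0.05. Medians use models with a mean of at least 5. Named models are, per role, the 3 highest means and the 2 smallest p-values, all with p under 0.05, and the 2 smallest p-values of each list; adiponectin, lipoprotein lipase, further markers and other models of low mean or shared name were added after their values were seen, and the named models of the oxidation list are not reported here. Lists were matched by description; 10 of 52 phrases were respelled after the table's spelling was seen, and 55 models of other proteins were left out. Members and lists were chosen with earlier results of these data known. Identifiers matched 0 entries of the reference gene table, so no coordinates or sequences are given. Each library is 1 animal, and the p-values rest on 2 non-responders.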

Additional observations from a re-analysis of the deposited data

How the results depend on the processing

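No model of fatty acid handling was called when p-values were readjusted over models whose mean reached 5 or 20, at an adjusted p under 0.10, or with the shortened descriptions included (0 in each case, where 82, 90 and 96 of all models were called under the first 3). The median log2 of 0.10 became -0.017 at a mean of at least 50 and 0.21 with groups rescaled to equal sums (the cause of the first was not tested), and stayed between 0.00 and 0.10 with every finite log2, 1 value per name, shortened descriptions or transcripts of at least 1000 bases; the last 2 were added after seeing the data. Rescaling to equal sums adds 0.11 to every log2, so the median over all models rises by as much. Equal sums turned the sign of 3 of 26 named log2 values and of the ligase median, and summing by name turned that of the elongase median. A pseudocount of 1 turned none. Leaving out single libraries was not run, since the columns of single libraries match no library's label and were not used. No paired analysis was possible because the groups are different animals and the labels give no pairing.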
